A study of Mus musculus with 6 samples.

Results

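The small leucine-rich proteoglycans (SLRPs) considered here are opticin (Optc) and 9 relatives, decorin (Dcn), biglycan (Bgn), asporin (Aspn), lumican (Lum), fibromodulin (Fmod), Prelp, keratocan (Kera), osteomodulin (Omd) and osteoglycin (Ogn). They were taken by gene symbol from the deposited table, as 10 of its 26018 genes. The family was brought up by the fall of Optc in the mutant uterus, so the values of Optc are given as a description without a test, and the question put to the data was whether the other 9 members share that fall. RNA was sequenced from whole uteri of female mice at 6 weeks of age, matched for body weight and left untreated. The cKO group, Tcf21 d/d, is a conditional knockout of Tcf21 (n = 3 animals, 1 library each), and Tcf21 f/f is the study's control group (n = 3 animals, 1 library each). Neither the Cre driver nor the deleted part of Tcf21 is stated in the labels. Libraries held 16579573, 16008078 and 14584450 reads on genes in cKO uteri and 14585539, 16245685 and 15694613 in control uteri. The study's stated aim was to find genes that act downstream of TCF21 while the uterus develops.

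SLRPs are secreted proteins with a horseshoe-shaped core of leucine-rich repeats, and many carry chondroitin, dermatan or keratan sulfate chains. Several bind collagen fibrils and set how thick the fibrils grow and how they are spaced, and some hold growth factors such as TGF-beta in the matrix. In the uterus they belong to the connective tissue of stroma and muscle wall, while Optc is best known from the vitreous of the eye. They are grouped by sequence into class I (Dcn, Bgn, Aspn), class II (Lum, Fmod, Prelp, Kera, Omd), class III (Optc, Ogn and epiphycan) and more distant classes. TCF21 belongs to the basic helix-loop-helix proteins and acts in mesenchyme, and such proteins bind as dimers to the E-box, CANNTG, a motif that reads the same on both strands.

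Optc and Prelp lie side by side on chromosome 1 of GRCm38, both on the minus strand, with a gap of 2304 bases between the start of Optc and the end of Prelp. Fmod follows at a distance of 115.8 kb on the plus strand. Dcn, Lum and Kera stand in a row on chromosome 10, Aspn, Omd and Ogn in a row on chromosome 13, and Bgn lies alone on the X chromosome. RefSeq start-site sequence (GRCm38.p6, 250 bases before to 50 after the start) was at hand for 8 of the 10 members. It is shown for the 3 members in which all cKO libraries were below all controls, with every CANNTG in capitals, read 5′ to 3′ on the gene's strand. The windows are chr1:133907950-133908249 on the minus strand for Optc, chr13:49607765-49608064 on the plus strand for Ogn and chr1:133921352-133921651 on the minus strand for Prelp.
Optc: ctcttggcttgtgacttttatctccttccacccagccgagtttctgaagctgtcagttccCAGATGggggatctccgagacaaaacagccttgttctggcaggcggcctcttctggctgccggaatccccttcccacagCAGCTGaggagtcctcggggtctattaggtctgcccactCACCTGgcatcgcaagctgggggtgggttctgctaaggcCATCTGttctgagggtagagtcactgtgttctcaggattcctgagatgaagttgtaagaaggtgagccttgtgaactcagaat
Ogn: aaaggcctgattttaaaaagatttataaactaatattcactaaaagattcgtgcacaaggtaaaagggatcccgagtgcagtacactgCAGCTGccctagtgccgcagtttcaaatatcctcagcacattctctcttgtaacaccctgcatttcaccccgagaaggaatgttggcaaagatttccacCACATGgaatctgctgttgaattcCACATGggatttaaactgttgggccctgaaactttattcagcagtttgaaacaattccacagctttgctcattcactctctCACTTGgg
Prelp: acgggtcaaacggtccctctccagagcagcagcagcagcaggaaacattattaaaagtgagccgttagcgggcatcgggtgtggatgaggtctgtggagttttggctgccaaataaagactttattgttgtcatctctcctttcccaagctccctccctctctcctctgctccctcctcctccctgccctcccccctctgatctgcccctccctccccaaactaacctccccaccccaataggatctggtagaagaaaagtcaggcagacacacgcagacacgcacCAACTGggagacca

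The Optc window held 4 CANNTG motifs, the Ogn window 4 and the Prelp window 1. Among the other 5 members with a window, Aspn had 2, Bgn 1, Fmod 1, and Omd and Kera had 0. Of 32851 RefSeq start-site windows of the same length, 72.3% held at least 1 CANNTG and 6.49% held 4 or more. The form CAGCTG, which Optc, Ogn and Bgn share, stood in 16.3% of all windows. These matches describe letters in the windows and no binding was measured.

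The targeted gene was low in the cKO libraries. Tcf21 had 26.0, 0 and 0 normalised counts in cKO uteri, against 341.4, 151.9 and 144.1 in control uteri, where a normalised count is a read count divided by the library's size factor. A count of 0 reads allows up to 3 reads, or 2.93 and 3.31 normalised counts in cKO 2 and cKO 3. The cKO 1 library kept 28 Tcf21 reads, and it is also the cKO library with the most Optc. As for the tissue, skeletal muscle genes took 2.75% to 8.49% of reads in the 6 libraries, and epithelial markers held 0.00230% to 0.00437% of reads in cKO uteri, against 0.00287% to 0.0326% in control uteri. Liver genes took 1.28% of reads in control 1 and at most 0.00834% elsewhere, so control 1 stands apart.

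Optc was close to absent in cKO uteri. It had 38.1, 3.90 and 2.21 normalised counts in cKO uteri, against 546.2, 498.8 and 868.3 in control uteri. The groups were far apart, with the lowest control at 13.1 times the highest cKO library, and within the cKO group cKO 1 stood well above the other two. In reads, Optc had 41, 4 and 2 in cKO uteri and 448, 555 and 976 in control uteri. The exact Poisson 95% interval of the normalised count was 27.3 to 51.7 in cKO 1, 1.06 to 9.99 in cKO 2 and 0.268 to 7.98 in cKO 3, covering counting error only. At this depth cKO 2 and cKO 3 cannot be told from each other, while cKO 1 lies above both intervals. The mean was 14.7 ± 20.2 normalised counts in cKO uteri and 637.8 ± 201 in control uteri (SD, n = 3 each), 43.3-fold lower in cKO uteri. On the scale of log2(normalised count + 1), the limma difference was -6.19 ± 0.88 (SE), with a 95% confidence interval of -8.25 to -4.13. It had rank 5 from the lowest among 16314 genes. Optc was picked for its fall in these same libraries, so the interval and the rank are descriptions and no test. Without cKO 1 the difference was -7.29. The gene (ENSMUSG00000010311, chr1:133897199-133907999) has 7 exons, and no other annotated gene shares exon bases or a near-identical stretch with it. In whole uterus, fewer cells of a type and less RNA per cell cannot be told apart.

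None of the other 9 members was called lower or higher in cKO uteri (0 lower and 0 higher by limma at a Benjamini-Hochberg adjusted p under 0.05). Over all 16314 genes tested, 1.16% were called by the same rule, 0.889% lower (145) and 0.276% higher (45), and CPM scaling changed that split to 119 lower and 12 higher. All 10 members passed the filter on low reads. Of the 9, 7 had a log2 fold change below 0, against 49.7% of all genes tested. Their median log2 fold change was -0.28, against 0.002 over all genes tested, and it was 0.022 without cKO 2. In 2 of the 9, Ogn and Prelp, all cKO libraries were below all controls, an arrangement found in 10.5% of all genes tested, and in none were all cKO libraries above all controls (9.04% of all genes tested). The same 2 were the members with an unadjusted limma p under 0.05, both lower, against 13.7% of all genes tested (7.6% lower and 6.11% higher). The count depended on the test and on 1 library. It was 0 lower and 0 higher by edgeR, which called 0.668% of all genes lower and 0.0797% higher, and 0 and 0 by limma-voom, which called 0.374% and 0.0613%. DESeq2 called 1 member lower, Ogn, and 0 higher, beside 3.27% of all its genes lower and 1.22% higher. Without control 3, limma also called Ogn lower and 0 members higher, beside 1.39% of all genes lower and 0.344% higher. Without control 1, the library with reads from liver genes, 0 members were called. Over all genes that fit called 347 lower and 117 higher, against 145 and 45 with all libraries. Its log2 fold changes were -6.28 for Optc, -0.89 for Ogn and -0.68 for Prelp.

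**Figure D1:**
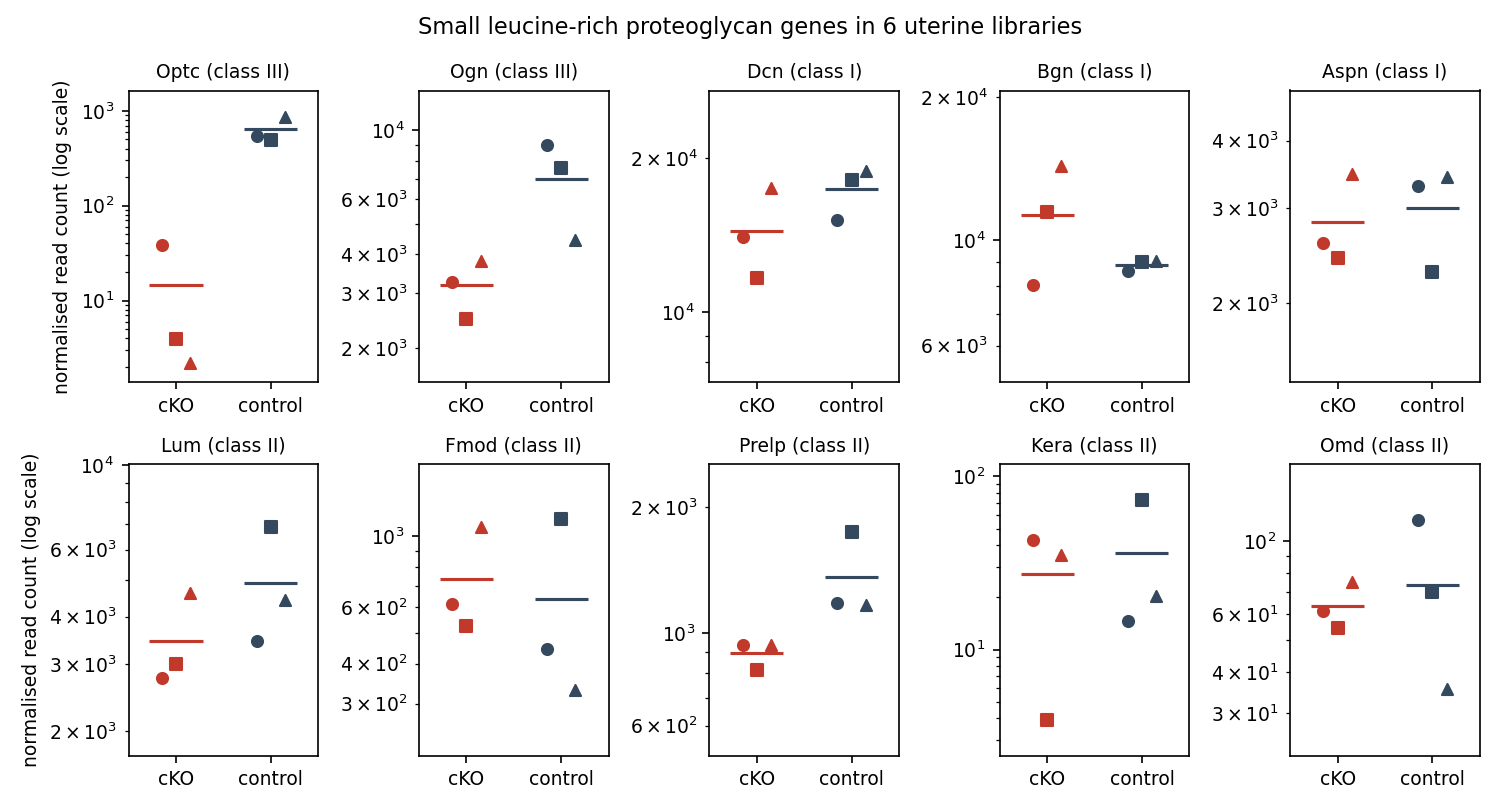
Normalised read counts of the 10 members on log axes, 1 panel per gene with its own range. Circles, squares and triangles are replicates 1, 2 and 3 of a group (the labels state no pairing by number), cKO left in red and control right in blue, and bars are arithmetic means. Optc shows the widest gap between groups (lowest control 13.1 times the highest cKO library), Ogn and Prelp show groups that do not overlap, and the other 7 members overlap.

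Ogn (ENSMUSG00000021390, chr13:49608046-49624501, plus strand), the other class III member and a keratan sulfate proteoglycan also called mimecan, had the lowest log2 fold change of the 9. It had 3253.1, 2485.6 and 3803.1 normalised counts in cKO uteri, against 8996.9, 7587.1 and 4430.4 in control uteri. The groups did not overlap, but control 3 stood much nearer to the cKO libraries than to the other controls. The means were 3181 ± 662 in cKO uteri and 7005 ± 2338 in control uteri (SD, n = 3 each), 2.202-fold lower in cKO uteri. The log2 fold change was -1.10 ± 0.28 (SE), with a 95% interval of -1.73 to -0.47, and did not pass the threshold (limma, Benjamini-Hochberg adjusted p = 0.118). The authors' deposited table gives Ogn a log2 fold change of -1.14 with an adjusted p of 0.00122. At an adjusted p under 0.05 it has 609 lower genes, 2.37% of its 25700 genes with a p-value. A DESeq2 fit of the recovered reads gave the same values for Ogn. Its 609 lower genes were 3.27% of the 18638 genes with an adjusted p. Without control 3 the limma log2 fold change was -1.40 with an adjusted p of 0.0240, and across all alternatives the adjusted p ran between 0.00122 and 0.430. Ogn was negative under every alternative run and passed the threshold in 2 of those planned, DESeq2 and limma without control 3.

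Class I holds Dcn, the member with the highest level per length, and none of the 3 passed the test. Dcn (ENSMUSG00000019929, chr10:97479609-97518143, plus strand), which carries a chondroitin or dermatan sulfate chain and binds collagen fibrils and TGF-beta, had 14039, 11693 and 17496 normalised counts in cKO uteri, against 15131, 18136 and 18930 in control uteri. The ranges overlapped, with cKO 3 above control 1. The log2 fold change of Dcn was -0.28 ± 0.21 (95% interval -0.76 to 0.19, limma, Benjamini-Hochberg adjusted p = 0.608). Bgn (ENSMUSG00000031375, chrX:73483602-73495933, plus strand), its nearest relative, had 8045, 11480 and 14324 normalised counts in cKO uteri, against 8597, 8978 and 9027 in control uteri. The controls were almost equal (coefficient of variation 2.66%), while the cKO libraries spread widely (27.9%), with cKO 1 below and cKO 2 and cKO 3 above every control. For Bgn the log2 fold change was 0.31 ± 0.22 (95% interval -0.20 to 0.81, limma, Benjamini-Hochberg adjusted p = 0.604). Aspn (ENSMUSG00000021388, chr13:49544443-49567565, plus strand), a class I protein without sulfated chains that restrains TGF-beta, had 2588, 2421 and 3466 normalised counts in cKO uteri, against 3288, 2280 and 3424 in control uteri. Its ranges nearly coincided, and the log2 fold change was -0.080 ± 0.21 (95% interval -0.56 to 0.40, limma, Benjamini-Hochberg adjusted p = 0.910).

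In class II, Prelp (ENSMUSG00000041577, chr1:133910304-133921414, minus strand), the neighbour of Optc on chromosome 1 and a protein that ties basement membranes to collagen, had 933.9, 813.3 and 934.8 normalised counts in cKO uteri, against 1179.0, 1746.2 and 1166.3 in control uteri. Every cKO library was below every control, and control 2 stood above the other controls. The mean was 1.53-fold lower in cKO uteri (894 ± 69.9 in cKO uteri and 1364 ± 331 in control uteri, SD, n = 3 each). The log2 fold change was -0.59 ± 0.19 (95% interval -1.02 to -0.15) and did not pass the threshold (limma, Benjamini-Hochberg adjusted p = 0.213; authors' deposited table, adjusted p = 0.125). Prelp shares 9.68% of its exon bases with Gm15851 on the opposite strand, and reads of both cannot be told apart if the counting ignored strand.

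Lum (ENSMUSG00000036446, chr10:97565128-97572703, plus strand), the keratan sulfate proteoglycan known from the transparent cornea, had 2758.8, 2993.6 and 4616.3 normalised counts in cKO uteri, against 3449.3, 6870.8 and 4418.9 in control uteri. The groups overlapped, with cKO 3 above 2 of the controls and control 2 the highest of the 6. Its log2 fold change was -0.49 ± 0.29 (95% interval -1.14 to 0.16, limma, Benjamini-Hochberg adjusted p = 0.508). Fmod (ENSMUSG00000041559, chr1:134037254-134048277, plus strand), which shapes collagen fibrils in tendon, had 615.1, 525.6 and 1070.7 normalised counts in cKO uteri, against 446.2, 1131.5 and 330.1 in control uteri. Control 2 was the highest and the other controls were the lowest of the 6. For Fmod the log2 fold change was 0.35 ± 0.48 (95% interval -0.797 to 1.498, limma, Benjamini-Hochberg adjusted p = 0.816).

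Kera and Omd were the lowest members in the controls. Kera (ENSMUSG00000019932, chr10:97606879-97613692, plus strand), known from the corneal stroma, had 42.7, 3.90 and 35.4 normalised counts in cKO uteri, against 14.6, 72.8 and 20.5 in control uteri. Neither group was uniform, and with 4 to 81 reads per library the 95% interval of the log2 fold change ran between -2.70 and 1.59 around -0.56 ± 0.94 (limma, Benjamini-Hochberg adjusted p = 0.854). Omd (ENSMUSG00000048368, chr13:49582462-49592822, plus strand), known from bone, had 61.3, 54.6 and 75.1 normalised counts in cKO uteri, against 115.8, 70.1 and 35.6 in control uteri. The controls spread on both sides of the cKO libraries, and the log2 fold change was -0.068 ± 0.46 (95% interval -1.10 to 0.96, limma, Benjamini-Hochberg adjusted p = 0.968). Omd is also uncertain because it shares near-identical stretches with 134 other genes, the longest covering 184 of its 2249 exon bases.

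The 95% interval of the log2 fold change excluded 0 for Ogn and Prelp among the 9. The lowest lower bound among the 9 was -2.70, for Kera. Both a smaller fall and a rise lie within the intervals of Dcn, Bgn, Aspn, Lum, Fmod, Kera and Omd, and the missed threshold does not show that these genes were equal in the 2 groups.

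**Figure D2:**
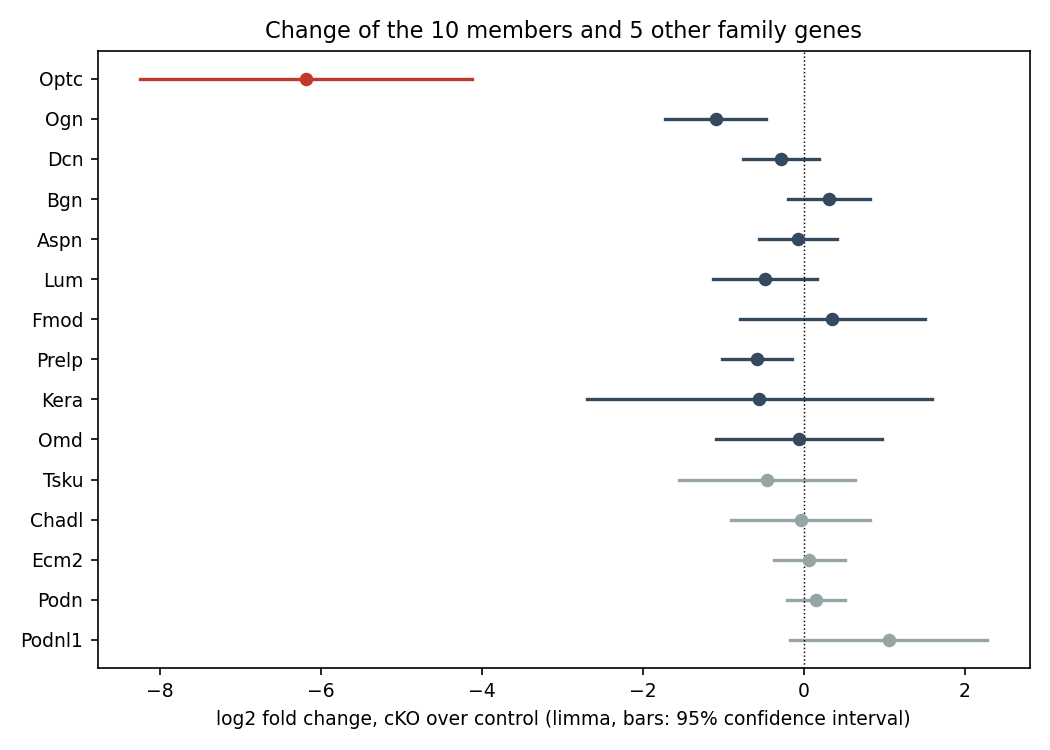
Log2 fold change, cKO over control, with 95% confidence interval (limma) for Optc in red, the 9 other members in dark blue and 5 further SLRP genes in grey. Optc (-6.19) and its interval are drawn as a description and no test, since its fall brought up the family. Among the 9, the intervals of Ogn and Prelp exclude 0.

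Levels of different genes were compared per kilobase of exon sequence, with all annotated exons of a gene merged. Merged lengths run from 2249 bases in Omd to 5838 in Dcn and 6099 in Bgn, and the isoforms present were not measured. Where they are shorter than the merged length, the level is understated. Orders, shares and ratios between genes depend on these lengths. In cKO uteri Dcn led at 2468 ± 500 normalised counts per kilobase (SD, n = 3 throughout), followed by Bgn at 1850 ± 516, Lum at 1412 ± 413, Ogn at 1240 ± 258 and Aspn at 1200 ± 238. A clear step led down to Prelp at 247 ± 19.3 and Fmod at 223 ± 88.4, and a further step to Omd at 28.3 ± 4.65, Kera at 12.0 ± 9.05 and Optc at 5.72 ± 7.86. The ranges of neighbours overlapped except between Aspn and Prelp, between Fmod and Omd and between Omd and Kera. Optc was last by its mean and overlapped Kera in range.

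In control uteri the order was Dcn at 2980 ± 343 normalised counts per kilobase, Ogn at 2730 ± 911, Lum at 2007 ± 720, Bgn at 1454 ± 38.6 and Aspn at 1273 ± 266. After the same step came Prelp at 377 ± 91.6, Optc at 248 ± 78.1 and Fmod at 192 ± 131, and then Omd at 32.8 ± 17.9 and Kera at 15.8 ± 14.0. Neighbours in this order overlapped in range except at the steps between Aspn and Prelp and between Fmod and Omd. Optc was a mid-level member in control uteri, above Omd and Kera in every library and in the range of Prelp and Fmod.

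**Figure D3:**
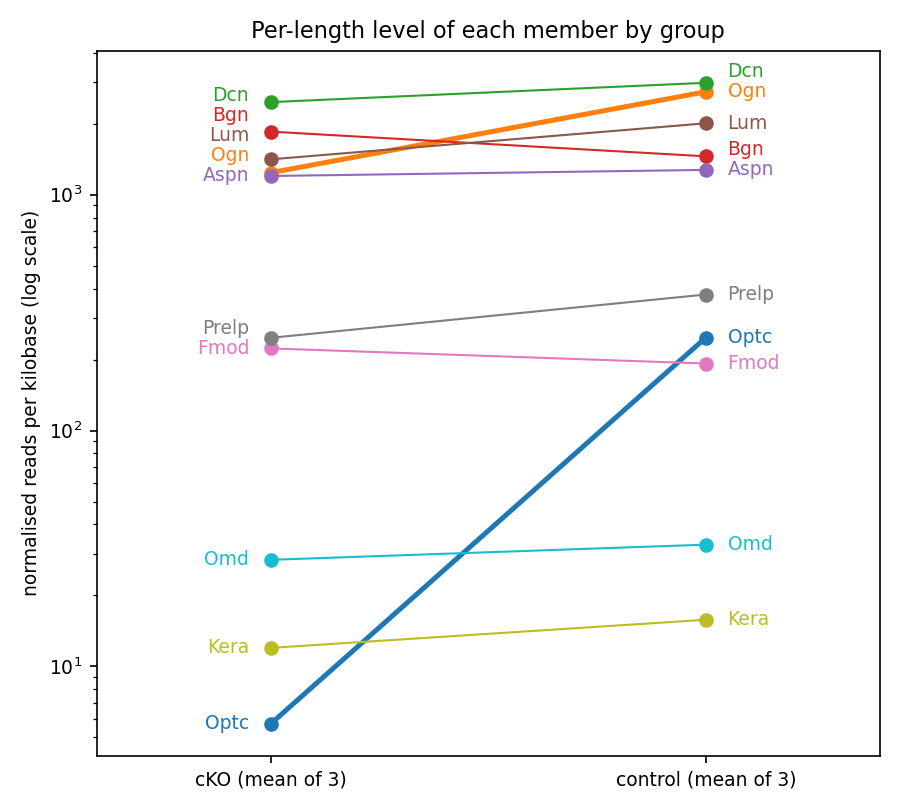
Mean level per kilobase of exon (log axis) of each member in cKO uteri on the left and control uteri on the right, 3 libraries each. Optc has rank 10 in cKO uteri (5.72) and rank 7 in control uteri (248), and Ogn has rank 4 in cKO uteri (1240) and rank 2 in control uteri (2730). Lines join the same gene.

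The make-up of the family shows the same values as shares. Optc made up 0.192%, 0.0202% and 0.00793% of the summed per-kilobase level of the 10 members in cKO uteri, against 1.92%, 1.56% and 3.21% in control uteri. Ogn made up 16.4%, 12.9% and 13.7% in cKO uteri, against 31.7%, 23.9% and 16.5% in control uteri. For Ogn the share in control 3 was almost that in cKO 1. Bgn made up 17.1%, 25.04% and 21.7% in cKO uteri, against 12.8%, 11.9% and 14.1% in control uteri, so that every cKO library was above every control in share, though not in count. A share depends on all 10 members, so the Bgn values describe make-up and not level. The 10 members together held 0.210%, 0.208% and 0.284% of reads in cKO uteri, against 0.235%, 0.324% and 0.305% in control uteri, with overlapping ranges.

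Ratios within a library do not depend on its scaling. The per-kilobase ratio of Optc to its neighbour Prelp was 0.0573, 0.00673 and 0.00332 in cKO uteri, against 0.650, 0.401 and 1.045 in control uteri. Those values lie far apart even though Prelp was itself lower in every cKO library. The ratio of Ogn to Dcn was 0.527, 0.484 and 0.495 in cKO uteri, against 1.35, 0.952 and 0.532 in control uteri. It was nearly constant among the cKO libraries and spread widely among the controls, with control 3 just above the cKO libraries. The ratio of Bgn to Dcn was 0.549, 0.940 and 0.784 in cKO uteri, against 0.544, 0.474 and 0.456 in control uteri, again without overlap, by a narrow margin between cKO 1 and control 1. The ratio of Lum to Dcn overlapped, at 0.469, 0.611 and 0.629 in cKO uteri, against 0.544, 0.903 and 0.557 in control uteri. Among single genes tested, 10.5% had all cKO libraries below all controls and 9.04% had all above. No such share was computed for ratios.

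**Figure D4:**
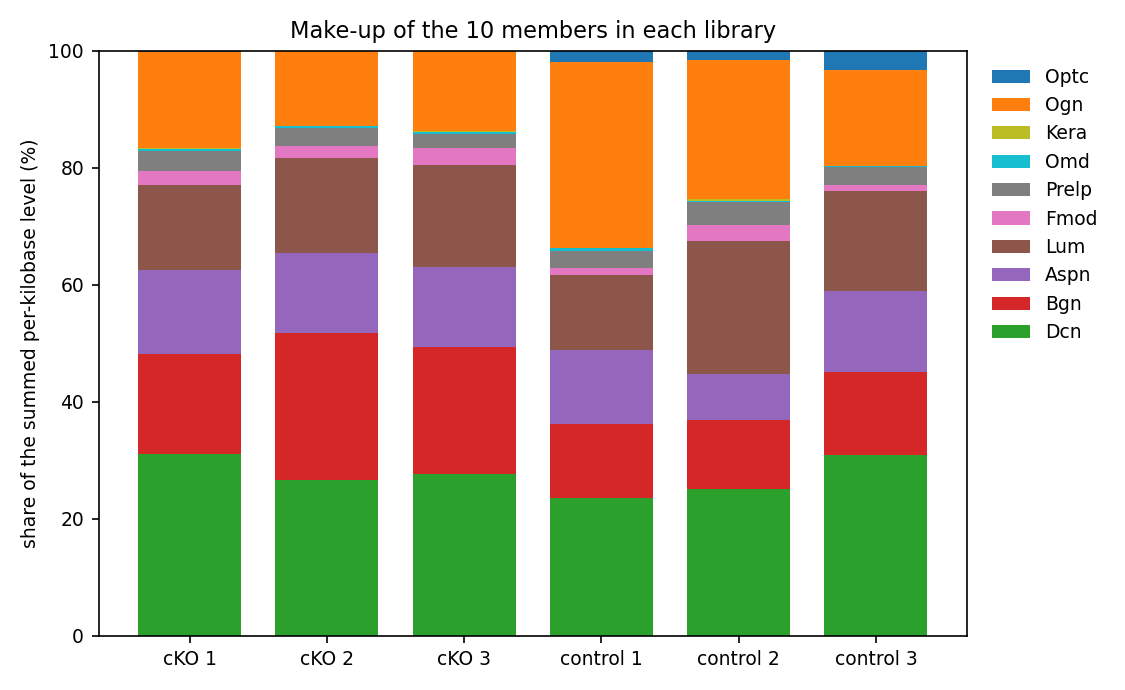
Share of the summed per-kilobase level of the 10 members (percent) in each of 6 libraries, cKO left and control right. The blue cap of Optc is at most 0.192% in cKO libraries and 1.56% to 3.21% in control libraries, and the orange band of Ogn spans 12.9% to 16.4% in cKO libraries and 16.5% to 31.7% in controls.

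Genomic neighbours within the family were set side by side. In the chromosome 1 group, the log2 fold changes were -6.19 for Optc, -0.59 for Prelp and 0.35 for Fmod. In the chromosome 10 row they were -0.28 for Dcn, -0.49 for Lum and -0.56 for Kera, and in the chromosome 13 row -0.080 for Aspn, -0.068 for Omd and -1.10 for Ogn. Prelp and Fmod, the members nearest to Optc, had opposite signs, and none of the 8 members beside Optc in these groups passed the test. Within 100 kb of Optc the table lists 2 further genes. Atp2b4, a plasma membrane calcium pump 96157 bases from Optc, had 695.0, 921.5 and 937.0 normalised counts in cKO uteri, against 1815.5, 3283.9 and 3226.7 in control uteri. The groups did not overlap, and Atp2b4 fell in cKO uteri (log2 fold change -1.67 ± 0.25, limma, Benjamini-Hochberg adjusted p = 0.0177). That call was lost without each cKO library in turn (adjusted p = 0.0852, 0.0931 and 0.0904 without cKO 1, cKO 2 and cKO 3). The lincRNA Gm1627 had 5 reads, all in cKO 2.

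The genes whose pattern over the 6 libraries was most like that of Optc were found by the root mean square difference of log2(normalised count + 1), each gene centred on its own mean. The nearest 5 among protein-coding genes were Nipal4 (0.640), Actg2 (0.658), Tmem59l (0.713), Klhl32 (0.756) and Tcf21 itself (0.759). Nipal4 had 9.29, 0 and 0 normalised counts in cKO uteri, against 47.6, 70.1 and 101.4 in control uteri. Actg2, the gamma actin of smooth muscle, had 405.1, 96.54 and 95.02 normalised counts in cKO uteri, against 13052, 23669 and 19171 in control uteri. In all 5, as in Optc, cKO 1 was the highest of the cKO libraries. Tmem59l (7.43, 0 and 0 in cKO uteri, against 89.0, 39.5 and 329.2 in control uteri) and Klhl32 (5.58, 0 and 0 in cKO uteri, against 53.6, 84.5 and 51.6 in control uteri) differ mainly in their controls. These genes were picked for their likeness in the same libraries, so no test is given. Among the members, Ogn was nearest to Optc with a difference of 2.84 (rank 954 of 16314), then Prelp with 3.03 (rank 1987), and Fmod was the farthest with 3.59.

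**Figure D5:**
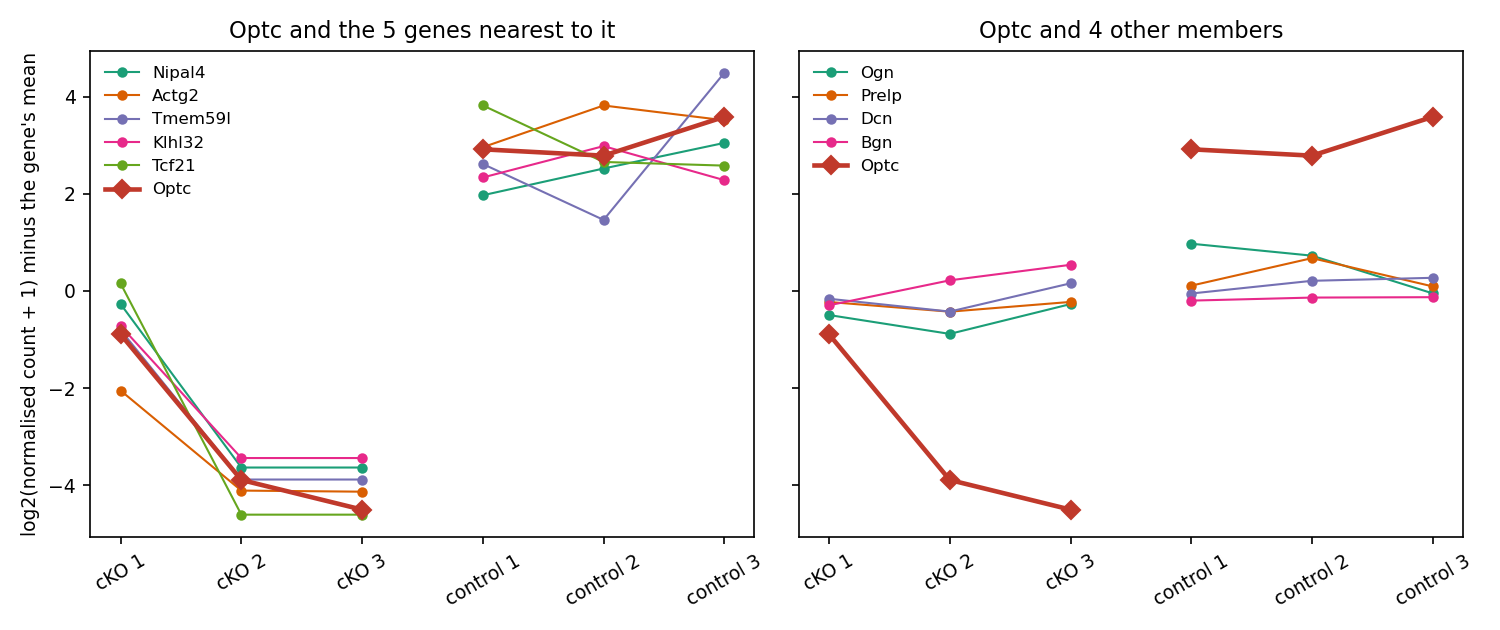
Log2(normalised count + 1) minus the gene's mean over 6 libraries, cKO libraries left and control libraries right. On the left panel Optc (red diamonds) runs with the 5 nearest genes, whose differences from it are 0.640 to 0.759, and on the right panel Ogn, Prelp, Dcn and Bgn stay much nearer to 0 than Optc. Lines join libraries of a group for reading and mean no order.

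Of 8 further SLRP genes, 5 passed the filter and none was called (0 lower and 0 higher by limma, edgeR, DESeq2 and limma-voom, and 0 at an unadjusted limma p under 0.05). Podn, which codes for podocan of class V, had 706.2, 828.9 and 739.2 normalised counts in cKO uteri, against 640.1, 774.7 and 638.8 in control uteri, with a log2 fold change of 0.15 ± 0.16. Its relative Podnl1 had 79.9, 31.2 and 66.3 normalised counts in cKO uteri, against 31.7, 14.4 and 38.3 in control uteri. Those ranges overlapped, and the log2 fold change was 1.0503 ± 0.54 (limma, Benjamini-Hochberg adjusted p = 0.446). Ecm2, next to Aspn on chromosome 13, had 556.6, 417.4 and 605.5 normalised counts in cKO uteri, against 543.8, 520.4 and 435.0 in control uteri. Its log2 fold change was 0.064 ± 0.20. Tsku, a secreted signalling modifier, had 207.2, 279.9 and 266.3 normalised counts in cKO uteri, against 786.4, 230.1 and 222.4 in control uteri. The high value stood in control 1 alone, the library in which 7 liver genes took 1.28% of reads, and the part of this in the Tsku value was not tested. Without control 1 its log2 fold change was 0.14, against -0.46 with it. Chadl had 94.8, 50.7 and 80.7 normalised counts in cKO uteri, against 54.9, 78.2 and 98.8 in control uteri, and 19.5% of its exon bases overlap L3mbtl2 on the opposite strand. The remaining 3 were too low to test. Epyc (epiphycan, class III) had 6, 0 and 0 reads in cKO uteri and 0, 0 and 5 in control uteri, with 40.6% of its exon bases overlapped on the opposite strand. Chad, the cartilage protein chondroadherin, had 9, 2 and 13 reads in cKO uteri and 5, 78 and 7 in control uteri, and Nyx, the retinal protein nyctalopin, had 9, 0 and 1 in cKO uteri and 0, 7 and 3 in control uteri.

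The genes around these proteoglycans were followed with 8 lists, covering fibril collagens, other collagen partners, propeptide processing and cross-linking, synthesis of chondroitin and dermatan sulfate, synthesis of keratan sulfate, proteases that cleave SLRPs, receptors and ligands, and large proteoglycans. Of the 107 list members tested, limma called 0 lower and 0 higher, with 8 lower and 9 higher at an unadjusted p under 0.05, beside 7.6% and 6.11% of all genes. DESeq2 called 3 lower (Chst12, Bcan, Spock2) and 3 higher (Col5a3, Vegfa, Vcan), beside 3.27% and 1.22% of all its genes, while edgeR and limma-voom called 0.

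Fibril collagens, the partners of the family in the matrix, had a log2 fold change above 0 in 7 of 8 tested, with a median of 0.42 and no call. Col5a3 had 5232, 7020 and 6691 normalised counts in cKO uteri, against 2286, 3669 and 4822 in control uteri, without overlap (log2 fold change 0.87 ± 0.27, limma, Benjamini-Hochberg adjusted p = 0.188). Col5a1, whose collagen V chains start new fibrils, had a log2 fold change of 0.47 ± 0.17. Of the 13 collagen partners, 9 were above 0 with a median of 0.18, with Eln (elastin) at 0.55 ± 0.22 and Matn2 at -0.73 ± 0.29. In processing and cross-linking, 6 of 9 were above 0 with a median of 0.21, with Loxl3 at 0.61 ± 0.21 and Pcolce, an enhancer of collagen propeptide removal, at 0.59 ± 0.22. All 12 SLRP-cleaving proteases were above 0, with a median of 0.22 and the smallest p in Mmp2 (0.43 ± 0.24) and Adamts5 (0.28 ± 0.18), none past the threshold. Of these 12, 0 had an unadjusted limma p under 0.05. Over all genes tested, 49.7% had a log2 fold change below 0. A shared direction within a list was not tested.

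The enzymes that build sulfated chains were centred near 0. In chondroitin and dermatan sulfate synthesis 11 of 21 were below 0, with a median of -0.002. Chst12, a chondroitin sulfotransferase, had 314.1, 324.7 and 365.7 normalised counts in cKO uteri, against 395.0, 909.5 and 753.5 in control uteri. Its groups did not overlap, with control 1 close to the cKO libraries (log2 fold change -0.95 ± 0.29, limma, Benjamini-Hochberg adjusted p = 0.183, and 0.00680 without control 1, in a range over all alternatives of 0.00579 to 0.507). Chst15 had -0.64 ± 0.22, with 17.9% of its exon bases overlapped on the opposite strand. In keratan sulfate synthesis 6 of 9 were below 0, with a median of -0.042, with Chst1 at 0.48 ± 0.25 and St3gal2 at -0.25 ± 0.22. Of 18 receptors and ligands 10 were above 0, with a median of 0.029. Vegfa had 3485, 3815 and 4503 normalised counts in cKO uteri, against 2192, 2594 and 2371 in control uteri, without overlap (0.72 ± 0.17, limma, Benjamini-Hochberg adjusted p = 0.0883). Tgfb1, a growth factor that Dcn and Bgn bind, had 0.48 ± 0.15 (adjusted p = 0.186).

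Large proteoglycans spread the most of the 8 lists, with log2 fold changes between -3.74 and 2.50 and a median of 0.016 over 17 tested. Bcan (brevican) had 3.72, 1.95 and 2.21 normalised counts in cKO uteri, against 119.5, 20.7 and 40.0 in control uteri. Spock2 (testican) had 149.6, 47.8 and 40.9 normalised counts in cKO uteri, against 428.0, 240.9 and 715.3 in control uteri. In both all cKO libraries were below all controls, and neither passed the threshold (log2 fold change -3.74 ± 0.81 for Bcan and -2.64 ± 0.56 for Spock2, limma, Benjamini-Hochberg adjusted p = 0.0694 and 0.0858). Vcan (versican), named here after its values were seen, had 1147, 1372 and 1605 normalised counts in cKO uteri, against 874.2, 614.7 and 857.6 in control uteri. All its cKO libraries were above all controls, and it did not pass the threshold (log2 fold change 0.82 ± 0.20, limma, Benjamini-Hochberg adjusted p = 0.104).

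Cell type marker lists are given beside these values. Over all genes tested, limma called 0.889% lower and 0.276% higher, 7.6% were lower and 6.11% higher at an unadjusted p under 0.05, and DESeq2 called 3.27% lower and 1.22% higher. Of 10 smooth muscle markers 9 fell (limma, adjusted p under 0.05), and the list held 0.495% to 0.669% of reads in cKO uteri, against 1.21% to 1.71% in control uteri. The 8 uterine mesenchyme markers, Hoxa10, Hand2 and Pgr among them, held 0.0194%, 0.0137% and 0.0131% of reads in cKO uteri, against 0.0508%, 0.0453% and 0.0296% in control uteri, with 0 called by limma, edgeR and limma-voom, 6 lower at an unadjusted limma p under 0.05 and 6 lower by DESeq2. Skeletal muscle markers held 5.64% to 8.49% of reads in cKO uteri, against 2.75% to 5.52% in control uteri, with 0 of 9 called by limma, 7 higher at an unadjusted p under 0.05 and 6 higher by DESeq2. Fibroblast markers, of the cells that make most SLRPs, held 0.191% to 0.229% in cKO uteri, against 0.146% to 0.229% in control uteri, with 0 of 9 called by limma, 3 higher at an unadjusted p under 0.05 and 1 higher by DESeq2. Schwann cell markers held 0.0312% to 0.0496% in cKO uteri, against 0.0152% to 0.0328% in control uteri, with 2 of 4 called higher by limma and by DESeq2. Neuron markers held 0.00119% to 0.00165% in cKO uteri, against 0.00126% to 0.0275% in control uteri, with 1 of 5 called lower by limma and 2 by DESeq2. Macrophage markers held 0.0756% to 0.106% in cKO uteri, against 0.0519% to 0.0671% in control uteri, with 0 of 5 called by limma, 3 higher at an unadjusted p under 0.05 and 1 higher by DESeq2. Tendon markers held 0.0695% to 0.0849% in cKO uteri, against 0.0367% to 0.0692% in control uteri, with 0 of 5 called by limma and DESeq2 and 1 higher at an unadjusted p under 0.05. The tendon sum was lowest in control 2, but 2 of its genes were highest there. Tnmd had 70, 23 and 95 reads in cKO uteri and 33, 220 and 31 in control uteri. Comp had 77, 85 and 113 reads in cKO uteri and 23, 231 and 29 in control uteri. Pericyte markers held 0.0545% to 0.0681% in cKO uteri, against 0.0507% to 0.175% in control uteri. Of these 6, limma called 0 and DESeq2 called 1 lower, with 2 lower and 1 higher at an unadjusted limma p under 0.05. All 5 epithelial markers tested had a log2 fold change below 0. Of these 5, limma called 0 and DESeq2 called 1 lower, with 2 lower at an unadjusted limma p under 0.05. In the remaining marker lists limma and DESeq2 called 0. The part of any of these cell types in the values of Optc, Ogn or Prelp was not tested.

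Among the controls, Fmod, Kera, Lum, Prelp and Chad were highest in control 2. A fit against control 2 alone, with that library assumed to vary like the cKO group, was chosen after these values were seen. It keeps the control with the most Prelp, which by itself lowers the difference of Prelp. It gave a log2 fold change of -0.97 for Prelp and -1.28 for Ogn and put both past the threshold, in a fit that called 2.79% of all genes lower and 1.5% higher, and nothing is read from those calls.

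Optc is known from the eye, and 4 eye markers are in the table. Together they held 0.000458% to 0.000837% of reads in cKO uteri, against 0.000151% to 0.00109% in control uteri. Crybb2 (lens) and Rlbp1 (retina) had 0 reads in all 3 cKO libraries and in control 1 and control 2, and 60 and 6 reads in control 3, the library with the most Optc. The lens gene Cryaa had 70.6, 99.5 and 134.8 normalised counts in cKO uteri, against 26.8, 97.1 and 93.4 in control uteri, with overlapping ranges. The remaining marker, Best2, had 0, 6 and 0 reads in cKO uteri and 0, 0 and 0 in control uteri. The part of eye RNA in the Optc values was not tested.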

How the data were processed

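Per the labels, Trizol RNA of whole uteri gave 1 library for each of 3 cKO and 3 control animals, and both groups were handled at the same time. HISAT2, SAMtools and featureCounts were used and the build is GRCm39, per the submitters' processing notes, which here name neither versions nor strand settings. Of 26006 identifiers found in GENCODE vM21 (GRCm38), 25257 had the coordinates of the deposited table, so coordinates are given as GRCm38.

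As deposited, the signal values are read counts per gene over a size factor that the authors applied to each library. The numbers themselves show it, since every column consists to 100% of whole multiples of a step within 0.01 reads, and division by the step recovered between 14584450 and 16579573 reads per library. The authors' deposited table also gives log2 fold changes and p-values, with 609 genes lower and 227 higher at an adjusted p under 0.05, and the tool they used is not stated. For 24 symbols that had become dates, the name was restored by identifier.

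The main test was limma 3.58.1 (R 4.3.3, trend, robust) on log2(value + 1), in all 6 libraries without covariates. Genes passed edgeR 4.0.16 filterByExpr on the recovered reads, and p-values were adjusted by Benjamini-Hochberg over 16314 genes at a threshold of 0.05. The added 1 understates the change of genes with few reads. The limma value compares means of logs, so it need not equal the log of the ratio of mean counts. For Optc it was -6.19, against -5.39 by edgeR and -5.43 by DESeq2. Alternatives were TMM and CPM scaling, other filters and pseudocounts, edgeR's quasi-likelihood test, DESeq2 1.42.0, limma-voom, a replicate block and leaving out each library; the fit without controls 1 and 3 was chosen after seeing the data. Scripts were tested on simulated data. Near-identical stretches (at least 100 bases at 95% identity) were found with blastn 2.17.0.

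The members and lists were chosen with earlier results of these data known. Named are all 10 members, the 8 other SLRP genes, each called gene of the matrix lists or else the 2 with the smallest p per list, genes within 100 kb of Optc and the 5 protein-coding genes with the pattern most like that of Optc. Errors are SD over 3 animals or SE of the fit. The upper limit for 0 reads was 3 reads, and such limits and Poisson intervals cover counting error only, since reads without molecular identifiers are not independent molecules.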

Additional observations from a re-analysis of the deposited data

How the results depend on the processing

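The count of members called was 0 lower and 0 higher with TMM or CPM scaling, both filters, both pseudocounts, edgeR and limma-voom. It was 1 lower with DESeq2, 0 to 1 with 1 library left out (1 without control 3) and 2 lower without controls 1 and 3, a fit chosen after seeing the data that keeps the control with the most Prelp and so is no support for a fall. The median log2 fold change of the 9 members ran between -0.27 and -0.32 under the other scalings, filters, pseudocounts and tests, between -0.51 and 0.022 with 1 library left out, and was -0.69 without controls 1 and 3. The cause of these shifts was not tested.

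Over the whole table, DESeq2 called 609 genes lower and 227 higher, limma-voom 61 and 10, and the fit without controls 1 and 3 called 504 and 271. TMM scaling called 146 lower and 42 higher, CPM scaling 119 and 12, and edgeR 109 and 13. With no filter the counts were 200 and 82, and with a filter on a mean of 10 reads 134 and 38. A pseudocount of 0.5 gave 130 and 38, and a pseudocount of 5 gave 158 and 45. With 1 library left out, the counts were 42 to 347 lower and 1 to 117 higher: 69 and 2 without cKO 1, 47 and 3 without cKO 2, 42 and 1 without cKO 3, 347 and 117 without control 1, 90 and 82 without control 2, and 235 and 58 without control 3.

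The log2 fold change of Optc ran between -7.29 and -5.39 over all alternatives. Among genes that were not called, the sign changed with 1 library left out for Fmod (-0.017 to 0.87), Omd (-0.51 to 0.33), Aspn (-0.27 to 0.027), Kera (-1.13 to 0.45), Chadl (-0.27 to 0.22), Ecm2 (-0.046 to 0.22) and Tsku (-0.77 to 0.14). Without controls 1 and 3 it changed for Fmod (-0.69), Aspn (0.29), Podn (-0.035), Ecm2 (-0.00081) and Tsku (0.11).

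Same-numbered cKO and control libraries did not deviate together (r = 0.0084, -0.18 and 0.044 for numbers 1, 2 and 3). The labels state no pairing, and such correlations cannot settle whether animals were paired. With the replicate block, 0 members were called lower and 0 higher, and 149 genes were lower and 34 higher. Each member symbol stands on 1 row, so summing repeated rows was not run. Kera, Optc in cKO 2 and cKO 3, Epyc, Chad and Nyx are limited by reads. With 3 animals a group, members with wide intervals (Kera, Fmod, Omd) could have changed by amounts that this design does not resolve. The limit is not confined to them. In simulated data limma called 0% of 50 genes changed 1.5-fold and 6% of 50 changed 2-fold. It called 57.1% of 49 genes changed 4-fold and 77.6% of 49 changed 8-fold. A missing call by itself therefore says little about a change of 2-fold or less in any member tested, Ogn and Prelp included. A 2-fold fall lies outside the limma 95% intervals of Dcn (-0.76 to 0.19), Bgn (-0.20 to 0.81), Aspn (-0.56 to 0.40) and Fmod (-0.797 to 1.498). It lies within those of Ogn, Prelp, Lum, Omd and Kera.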
